A study of Homo sapiens with 12 samples.

Results

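Transcription factors of the myeloid lineage were followed by their mRNA in MV4-11, an established acute myeloid leukemia (AML) cell line. The 10 genes, SPI1, CEBPA, CEBPE, RUNX1, MYB, GFI1, IRF8, KLF4, GATA2 and ZEB2, were matched by symbol, and all 10 were found among the 43876 genes of the expression table. The line is treated by the study as FLT3-ITD mutated, although its labels give the genotype as wild-type. Cells were cultured for 24 h with 20 nM mitoxantrone (Mito-Lipo, which the study describes as a liposome and the labels only as mitoxantrone), with 25 nM gilteritinib (Gilteritinib), with 20 nM of mitoxantrone together with 20 nM of gilteritinib (Com) or with the solvent alone (DMSO). Each of the 4 conditions had 3 libraries, numbered 1, 2 and 3. Mitoxantrone is a topoisomerase II poison, and gilteritinib inhibits the FLT3 receptor kinase. The question was whether these drugs, alone or together, altered the factors that set myeloid identity.

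Myeloid cells arise from progenitors in which RUNX1, MYB and GATA2 are active. The Ets factor PU.1, encoded by SPI1, and the basic leucine zipper factor C/EBPα, encoded by CEBPA, then direct cells towards monocytes and granulocytes. C/EBPε and the repressor GFI1 act on the granulocyte side, IRF8 and KLF4 on the monocyte side, and the zinc finger repressor ZEB2 takes part in monocyte and dendritic cell maturation. Many of these factors bind the regulatory regions of one another's genes. In AML this circuit is often halted between the progenitor and the mature cell.

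The values are FPKM, numbers of sequenced fragments divided by the length of the gene and the depth of the library. The depth read back from the values was 31724840 to 41320800 mapped fragments per library. Differences were tested with limma on log2(FPKM + 1) in the 18574 genes that reached 1 FPKM in at least 3 libraries, and a gene was called at a Benjamini-Hochberg adjusted p under 0.05. A fold change on this scale understates the change of a gene of low FPKM. The labels do not state what a replicate number stands for, nor that libraries came from separate cultures, so the p-values measure the spread between these libraries, which may be technical. Libraries numbered 1 stood apart: 39.6% of all genes tested were called between replicate 1 and replicates 2 and 3. Results are therefore also given without replicate 1.

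The cell type markers matched the label. FLT3 stood at 132 to 171 FPKM, SPN at 68.2 to 117 and CD33 at 17.9 to 27.6 over the 12 libraries. The summed level of 3 T cell markers was at most 0.267 FPKM, that of 3 epithelial markers at most 0.129, and that of 3 megakaryocyte markers at most 0.756. Of the B cell markers, MS4A1 did not exceed 0.0177 FPKM and CD79A did not exceed 0.519. Erythroid markers are given beside GATA2. In bulk RNA, fewer cells of a type and less RNA per cell cannot be told apart.

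The 10 factors spanned a wide range of expression. In DMSO, IRF8 was the highest at 252 ± 46.0 FPKM (SD, n = 3), followed by MYB at 196 ± 6.11, ZEB2 at 168 ± 2.83, RUNX1 at 92.1 ± 14.0, SPI1 at 90.2 ± 16.045, GFI1 at 78.7 ± 9.52 and CEBPA at 62.1 ± 3.42. GATA2 was far lower at 4.20 ± 1.98 FPKM. CEBPE, at 0.742 ± 0.255, and KLF4, at 0.479 ± 0.199, came last. The DMSO libraries of RUNX1 and SPI1, of SPI1 and GFI1, and of CEBPE and KLF4 overlapped, so the order within these pairs was not separated by the spread. Over all 12 libraries the mean of each of the 7 highest factors lay above that of at least 97.9% of all genes in the table, while the mean of GATA2 lay above 81.1%, that of CEBPE above 55.8% and that of KLF4 above 53.3%. CEBPE and KLF4 reached 1 FPKM in no library, which left 8 of 10 factors in the tests.

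**Figure D1:**
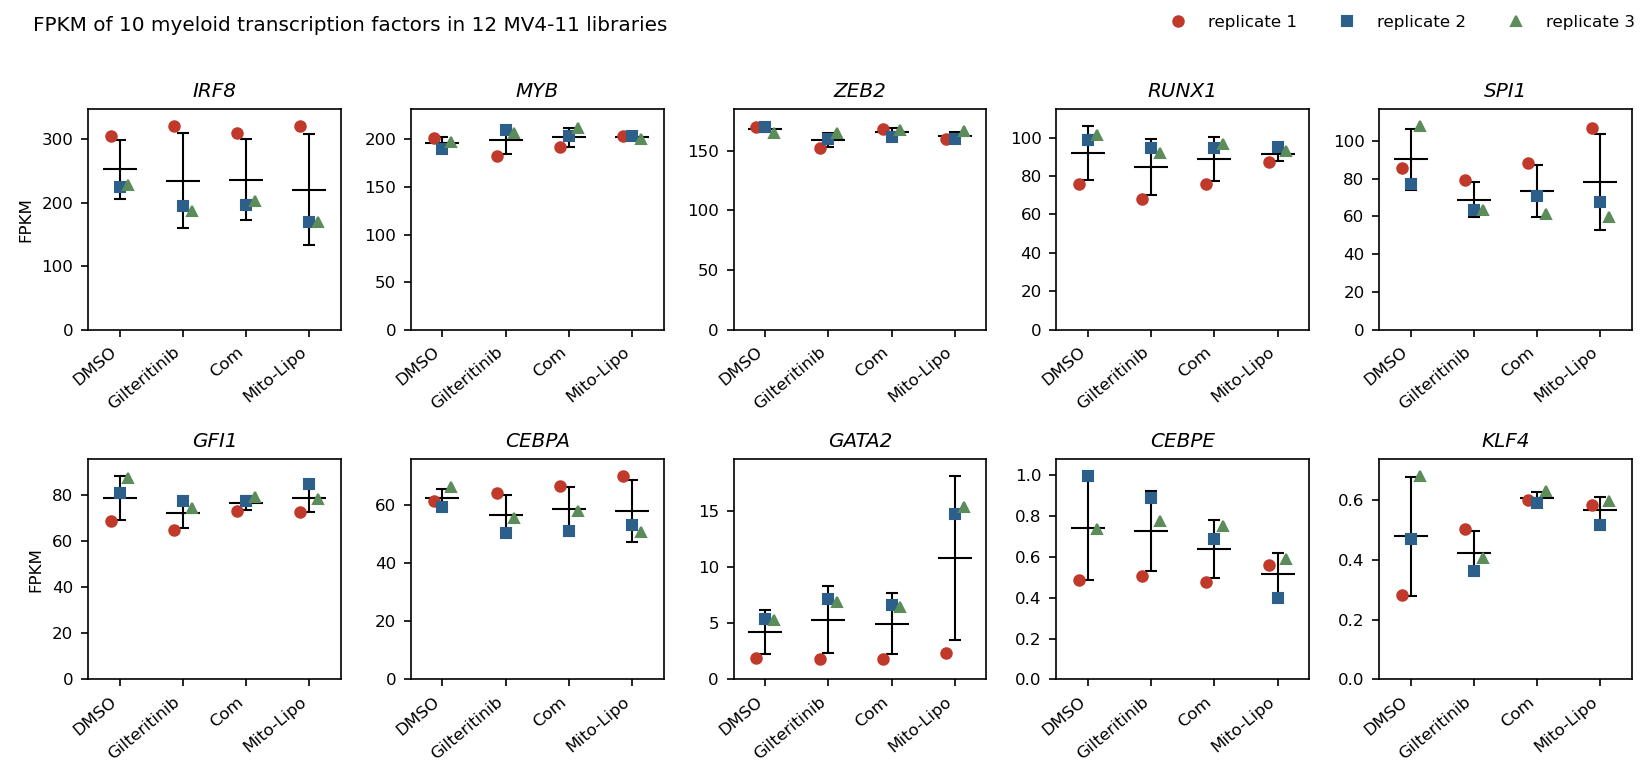
FPKM of each of the 10 factors (linear axis from 0, a separate scale for each gene) in every library, by condition; symbols mark the replicate number, and the bar with whiskers is the mean ± SD of 3 libraries. In GATA2 and IRF8 the circles of replicate 1 lie apart from replicates 2 and 3 in every condition, and the Mito-Lipo libraries 2 and 3 of GATA2 lie above all others.

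GATA2 (ENSG00000179348, chr3:128479427-128493185 on GRCh38, minus strand), a zinc finger factor of stem and progenitor cells, showed the widest spread. In replicates 1, 2 and 3 it stood at 1.91, 5.36 and 5.32 FPKM in DMSO, 2.34, 14.7 and 15.3 in Mito-Lipo, 1.85, 7.20 and 6.92 in Gilteritinib and 1.82, 6.66 and 6.43 in Com. Every library numbered 1 lay below every library numbered 2 or 3. Against the DMSO library of the same number, Mito-Lipo held 1.22 times the GATA2 level in replicate 1, 2.75 times in replicate 2 and 2.89 times in replicate 3. With gilteritinib present these ratios were lower, at 0.969, 1.34 and 1.30 in Gilteritinib and 0.954, 1.24 and 1.21 in Com.

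With all 12 libraries GATA2 was not called in Mito-Lipo against DMSO (log2 fold change 0.96, SE 0.67, adjusted p = 0.811). Its 95% confidence interval ran from 0.699-fold to 5.41-fold. Without replicate 1, with 2 libraries per condition, GATA2 rose 2.53-fold on the scale of FPKM + 1 (log2 fold change 1.34, SE 0.053, adjusted p = 0.000252), and the interval narrowed to 2.31-fold to 2.77-fold. In these libraries GATA2 was lower in Com than in Mito-Lipo (log2 fold change −1.09, adjusted p = 0.000446) and lower in Gilteritinib than in Mito-Lipo (−0.99, adjusted p = 0.000664). Over all libraries these differences were −0.81 (adjusted p = 0.978) and −0.74 (adjusted p = 0.792). Without replicate 1, Gilteritinib against DMSO (0.35, adjusted p = 0.0675) and Com against DMSO (0.25, adjusted p = 0.343) were not called. The interaction, which is the difference of Com and Gilteritinib less the difference of Mito-Lipo and DMSO, was −1.43 (adjusted p = 0.00128) without replicate 1 and −1.03 (adjusted p = 0.99974) with it. The gilteritinib dose behind it was unequal, being 25 nM as a single agent against 20 nM in the mixture.

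HBB, a globin gene of erythroid cells, in which GATA2 is active early, was lower in replicate 1 than in replicates 2 and 3 (log2 difference −0.98). HBB lay near the filter of 1 FPKM and passed it mainly through replicates 2 and 3, so this difference is a description only. In replicates 2 and 3, HBB stood at 1.14 and 1.37 FPKM in DMSO, 1.71 and 2.85 in Mito-Lipo, 1.26 and 1.02 in Gilteritinib and 0.972 and 1.07 in Com. In replicate 1 it was at 1.05 FPKM in Mito-Lipo and was listed at 0 in the other 3 conditions. HBB was not called between conditions, with a log2 fold change in Mito-Lipo against DMSO of 0.69 (adjusted p = 0.762) over all libraries and 0.52 (adjusted p = 0.167) without replicate 1. ALAS2, the erythroid enzyme of heme synthesis, ranged from 0.253 to 0.626 FPKM over the 12 libraries. The part of these cells or transcripts in the GATA2 result was not tested. GATA2-AS1, an antisense gene that overlaps GATA2 but shares 0 exon bases with it, ranged from 1.77 to 3.16 FPKM and was not called in Mito-Lipo against DMSO, with a log2 fold change of 0.25 over all libraries and 0.22 without replicate 1.

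IRF8 (ENSG00000140968, chr16:85898803-85922609, plus strand), an interferon regulatory factor of monocyte and dendritic cell development, was the most abundant of the 10. It stood at 305, 224 and 227 FPKM in replicates 1, 2 and 3 of DMSO, at 321, 169.8 and 169.6 in Mito-Lipo, at 321, 195 and 188 in Gilteritinib and at 310.1, 196 and 203 in Com. Replicate 1 was above replicates 2 and 3 in every condition, by 1.35-fold in DMSO and 1.89-fold in Mito-Lipo. In replicates 2 and 3 each drug library lay below the DMSO library of the same number, at 0.757 and 0.747 times for Mito-Lipo. In replicate 1 each drug library lay slightly above, at 1.05 times for Mito-Lipo, 1.05 times for Gilteritinib and 1.02 times for Com.

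IRF8 was accordingly not called over all libraries (Mito-Lipo against DMSO, log2 fold change −0.25, SE 0.29, adjusted p = 0.925). Without replicate 1 it fell in Mito-Lipo (log2 fold change −0.41, SE 0.035, adjusted p = 0.00284), to 0.753 of the DMSO level with an interval of 0.710 to 0.799. It was higher in Com than in Mito-Lipo (0.23, adjusted p = 0.0189) and higher in Gilteritinib than in Mito-Lipo (0.17, adjusted p = 0.0438). Over all libraries these differences were 0.14 (adjusted p = 0.998) and 0.11 (adjusted p = 0.950). Against DMSO and without replicate 1, Gilteritinib (−0.24, adjusted p = 0.0598) and Com (−0.18, adjusted p = 0.317) were not called. The interaction without replicate 1 was 0.47 (adjusted p = 0.00759), and with it 0.27 (adjusted p = 0.99974). GATA2 and IRF8 thus moved in opposite directions in Mito-Lipo against DMSO in replicates 2 and 3.

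The difference between replicate 1 and the other replicates was also tested directly. The Mito-Lipo effect on GATA2 in replicate 1, less that in replicates 2 and 3, was −1.14 on the log2 scale (adjusted p = 0.0163), and that on IRF8 was 0.48 (adjusted p = 0.0270). In this test 1.78% of all genes were called, and 2 of the 8 factors. Replicate 1 holds 1 library per condition, so its own spread is unknown and is taken from the other libraries.

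The promoters of GATA2, IRF8 and RUNX1, the 3 factors with the smallest adjusted p between replicate numbers, are shown for the binding motifs of the circuit's own members. The sequences are from RefSeq on GRCh38.p14, from 250 bases before to 50 bases after 1 annotated start, 5′ to 3′ on the gene's strand. They lie at chr3:128493152-128493451 (minus strand), chr16:85902580-85902879 (plus strand) and chr21:34888650-34888949 (minus strand), and capitals mark motif matches on either strand. The GATA2 window spans the 5′ end of the gene. Those of IRF8 and RUNX1 lie inside the bounds of the gene, at a start downstream of its 5′ end.
GATA2: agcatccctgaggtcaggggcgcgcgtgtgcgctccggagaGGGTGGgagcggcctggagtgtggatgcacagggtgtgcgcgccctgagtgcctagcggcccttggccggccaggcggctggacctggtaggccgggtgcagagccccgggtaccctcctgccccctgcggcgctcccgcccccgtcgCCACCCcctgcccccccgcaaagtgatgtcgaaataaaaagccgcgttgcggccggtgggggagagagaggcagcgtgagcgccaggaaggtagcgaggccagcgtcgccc
IRF8: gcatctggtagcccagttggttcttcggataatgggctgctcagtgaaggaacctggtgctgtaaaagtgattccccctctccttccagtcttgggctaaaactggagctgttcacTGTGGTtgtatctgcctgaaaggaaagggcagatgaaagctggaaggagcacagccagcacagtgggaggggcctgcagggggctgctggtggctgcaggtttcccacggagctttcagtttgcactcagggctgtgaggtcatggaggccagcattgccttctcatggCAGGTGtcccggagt
RUNX1: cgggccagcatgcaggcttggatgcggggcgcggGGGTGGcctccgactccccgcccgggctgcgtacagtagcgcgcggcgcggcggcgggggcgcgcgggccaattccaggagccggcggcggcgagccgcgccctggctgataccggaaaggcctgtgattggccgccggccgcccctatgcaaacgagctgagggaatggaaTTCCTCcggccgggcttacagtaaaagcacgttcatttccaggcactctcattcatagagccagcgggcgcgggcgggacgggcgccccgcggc
The motifs searched were GAGGAA for PU.1, TTNCNNAA for C/EBP, TGTGGT for RUNX, AACGG for MYB, AGATAA for GATA factors, CACCTG for ZEB factors and CCACCC for KLF factors. In GATA2 the capitals are 2 KLF motifs, at −209 and −61 from the start. IRF8 holds a RUNX motif at −134 and a ZEB motif at 35, a sequence that is also an E-box. RUNX1 holds a KLF motif at −216 and a PU.1 motif at −44. No 2 of these matches overlap.

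Of the 10 factors 9 had a promoter in the table, all but SPI1. The PU.1 motif stood in 4 of them (CEBPE, RUNX1, MYB and KLF4), against 27.9% of all 35116 promoters. The KLF motif stood in 4 (CEBPA, RUNX1, MYB and GATA2), against 34.3%. The RUNX and ZEB motifs stood in 1, IRF8, against 13.1% and 20.6%, and the MYB motif in 1, ZEB2, against 19.7%. The C/EBP and GATA letters were in 0 of the 9 windows, against 36.8% and 10.3% of all promoters. The windows cover 1 start per gene, not always the most upstream, and no enhancer. A match is a description of the sequence only.

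SPI1 (ENSG00000066336, chr11:47354860-47378576, minus strand) encodes PU.1, on which the myeloid and B cell lineages depend. It stood at 85.6, 77.0 and 108 FPKM in replicates 1, 2 and 3 of DMSO, at 107, 67.7 and 59.8 in Mito-Lipo, at 79.5, 63.6 and 63.2 in Gilteritinib and at 88.1, 71.0 and 61.2 in Com. The DMSO library of replicate 3 was the highest of the 12, and in replicate 3 every drug library was at 0.554 to 0.585 times its level. The log2 fold change against DMSO was −0.23 in Mito-Lipo (interval −0.71 to 0.24), −0.38 in Gilteritinib and −0.29 in Com, and none was called. Without replicate 1 these were −0.51 (adjusted p = 0.132), −0.52 (adjusted p = 0.289) and −0.46 (adjusted p = 0.576). The Mito-Lipo value turned to 0.07 without replicate 3.

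CEBPA (ENSG00000245848, chr19:33299934-33302564, minus strand), a gene of a single exon for the factor required to form granulocyte-monocyte progenitors, followed a like course. It stood at 61.1, 59.3 and 65.9 FPKM in DMSO, at 70.0, 52.9 and 50.6 in Mito-Lipo, at 63.9, 50.2 and 55.4 in Gilteritinib and at 66.3, 51.0 and 57.9 in Com. In replicates 2 and 3 each drug library lay below the DMSO library of the same number, and in replicate 1 above. The log2 fold change in Mito-Lipo was −0.11 (interval −0.42 to 0.19) over all libraries and −0.27 (adjusted p = 0.132) without replicate 1, and was not called. GENCODE places antisense genes over 659 and 482 of the exon bases of CEBPA, and with no strand stated for the counting their reads cannot be told apart from those of CEBPA.

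CEBPE (ENSG00000092067, chr14:23117304-23119616, minus strand), which acts late in granulocyte maturation, was barely detected. Its values were 0.489, 0.999 and 0.739 FPKM in DMSO, 0.562, 0.397 and 0.588 in Mito-Lipo, 0.508, 0.890 and 0.776 in Gilteritinib and 0.477, 0.689 and 0.751 in Com. At a length of 1191 bases these are 15 to 43 fragments per library. The conditions overlapped, with a log2 fold change of −0.19 in Mito-Lipo (SE 0.14) in the fit without a filter.

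RUNX1 (ENSG00000159216, chr21:34787801-36004667, minus strand), the DNA-binding partner of CBFβ in blood formation, stood at 76.0, 98.9 and 101 FPKM in replicates 1, 2 and 3 of DMSO, at 87.2, 94.9 and 92.8 in Mito-Lipo, at 68.1, 94.4 and 91.9 in Gilteritinib and at 75.7, 94.3 and 96.5 in Com. All 4 libraries of replicate 1 lay below all 8 others. Between conditions the levels overlapped, and the log2 fold change in Mito-Lipo was 0.00 with an interval of −0.33 to 0.33. The interval without replicate 1 was −0.17 to −0.02, with an adjusted p of 0.163.

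MYB (ENSG00000118513, chr6:135181315-135219173, plus strand), the proto-oncogene that keeps progenitors immature, was among the steadiest. It stood at 202, 189.6 and 197 FPKM in DMSO, at 204, 204 and 200.2 in Mito-Lipo, at 183, 209.6 and 207 in Gilteritinib and at 192, 204 and 212 in Com. The intervals of its log2 fold change against DMSO lay between −0.13 and 0.20 in all 3 treatments. MYB-AS1, on the opposite strand, shares 103 exon bases with MYB and reached 39.3 FPKM, so part of the reads cannot be told apart.

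GFI1 (ENSG00000162676, chr1:92474762-92486876, minus strand), a repressor that recruits KDM1A and histone deacetylases, stood at 68.4, 80.8 and 87.1 FPKM in DMSO, at 72.5, 84.7 and 78.2 in Mito-Lipo, at 64.8, 77.4 and 74.1 in Gilteritinib and at 73.0, 77.3 and 78.8 in Com. The conditions overlapped, with a log2 fold change in Mito-Lipo of 0.00 (interval −0.22 to 0.22). Replicate 1 was the lowest in each condition.

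ZEB2 (ENSG00000169554, chr2:144364364-144524583, minus strand) varied least. It stood at 169.6, 169.7 and 165 FPKM in DMSO, at 159, 160.1 and 167 in Mito-Lipo, at 152, 160.0 and 164 in Gilteritinib and at 168, 161 and 167 in Com. The Gilteritinib libraries lay below those of DMSO without overlap, a pattern shown by 6.57% of all genes, and the difference was not called (log2 fold change −0.08, interval −0.21 to 0.05). No other tested factor was free of overlap with DMSO in any treatment, against 13.6% of all genes in Mito-Lipo and 5.73% in Com. ZEB2-AS1 shares 1299 exon bases with ZEB2 on the opposite strand and reached 25.6 FPKM.

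KLF4 (ENSG00000136826, chr9:107484852-107490482, minus strand), a Krüppel-like factor of monocytes, was at 0.284, 0.471 and 0.682 FPKM in DMSO, 0.583, 0.515 and 0.597 in Mito-Lipo, 0.503, 0.361 and 0.405 in Gilteritinib and 0.600, 0.589 and 0.629 in Com. These are 30 to 70 fragments per library at a length of 2937 bases. The DMSO libraries ranged more widely than those of any treatment (SD 0.199, against a counting error of 0.0604), and each treatment overlapped them. The Gilteritinib libraries lay below those of Mito-Lipo and of Com without overlap. In limma without a filter the unadjusted p was 0.188 against Mito-Lipo and 0.102 against Com. The share of all genes with such a gap was not counted.

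Over all 12 libraries, 0 of the 8 tested factors were called by limma in any of the 6 comparisons of conditions or in the interaction, and 0 passed an unadjusted p under 0.05. The share of all genes called was 0% in each of these except Com against DMSO, with 0.00538% (MIR4316 alone, named after its value was seen). At the unadjusted threshold it was 7.9% for Mito-Lipo, 1.86% for Gilteritinib and 1.67% for Com, each against DMSO. It was 5.53% for Com and 9.52% for Gilteritinib when set against Mito-Lipo, 1.63% between Com and Gilteritinib, and 2.91% for the interaction. With so few genes called, the 0 of the factors does not set them apart.

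Without replicate 1, GATA2 and IRF8 were the 2 factors called in Mito-Lipo against DMSO (6.41% of all genes), in Com against Mito-Lipo (6.13%), in Gilteritinib against Mito-Lipo (6.63%) and in the interaction (2.97%). In Gilteritinib against DMSO (0.614%), Com against DMSO (0.0485%) and Com against Gilteritinib (0.0754%) 0 factors were called. The unadjusted p was under 0.05 in these comparisons for 7, 4 and 0 of the 8 factors, beside 11.7%, 7.51% and 6.46% of all genes. The median log2 fold change of the 8 factors in Mito-Lipo was −0.07, beside 0.02 for all genes.

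**Figure D2:**
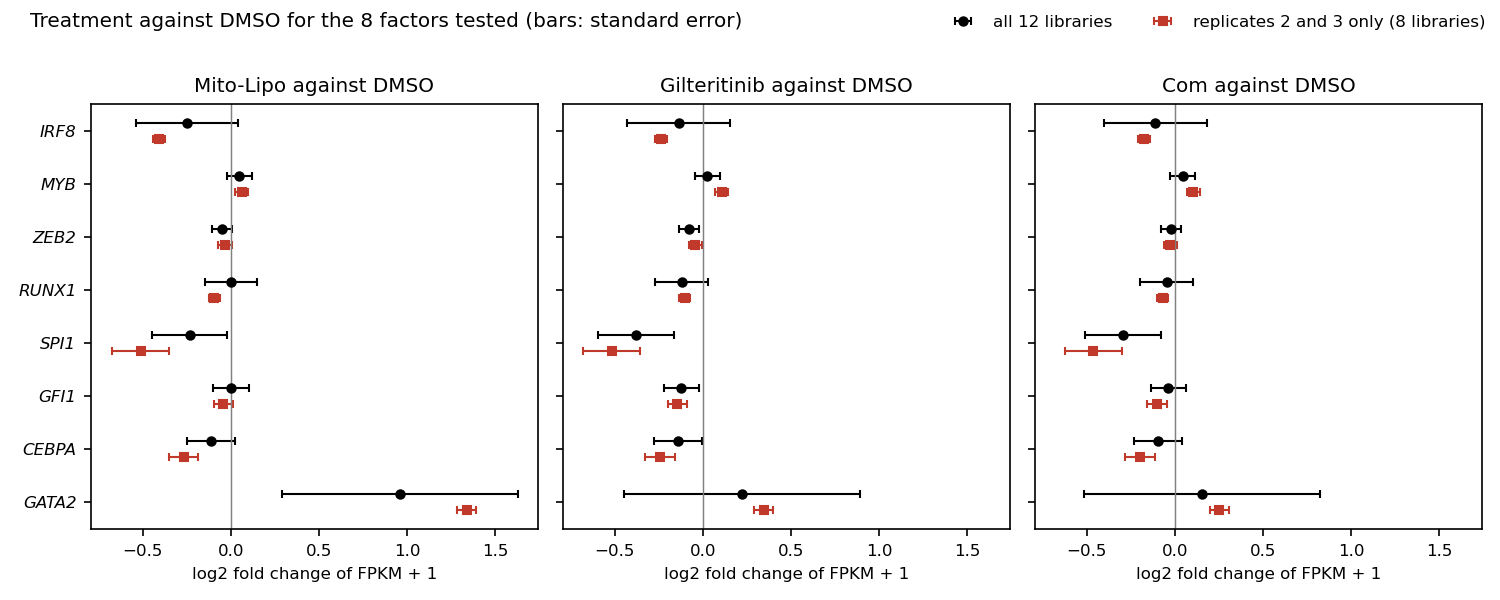
Log2 fold change of FPKM + 1 against DMSO for the 8 factors tested, with all 12 libraries (black circles) and with replicates 2 and 3 only (red squares); bars are the standard error from limma. The error bar of GATA2 in Mito-Lipo shrinks from 0.67 to 0.053 without replicate 1, and its value moves from 0.96 to 1.34.

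More of the factors were called by replicate number than by drug. This split was made with the separation of replicate 1 already known. Between replicate 1 and replicates 2 and 3, 5 of the 8 factors were called, beside 39.6% of all genes, of which 26.9% were higher and 12.7% lower in replicate 1. GATA2 (log2 difference −1.58, adjusted p = 7.97e-05), RUNX1 (−0.32, adjusted p = 0.00113) and GFI1 (−0.19, adjusted p = 0.00549) were lower in replicate 1, and IRF8 (0.68, adjusted p = 9.47e-05) and CEBPA (0.24, adjusted p = 0.0243) were higher. SPI1 (0.35, adjusted p = 0.0501), MYB (−0.06) and ZEB2 (−0.02) were not called. RUNX1, GFI1, IRF8 and GATA2 showed no overlap between the 4 libraries of replicate 1 and the 8 others, as did 19.6% of all genes.

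The calls of GATA2, IRF8, RUNX1 and GFI1 held in every alternative that was run. That of CEBPA was lost when libraries were rescaled by median ratios (0.16, adjusted p = 0.113), without the filter (adjusted p = 0.0551), and without replicate 1 of Mito-Lipo (adjusted p = 0.0965), of Gilteritinib (adjusted p = 0.0744) or of Com (adjusted p = 0.0804). SPI1 was called without the DMSO library of replicate 1 (adjusted p = 0.0128) or of replicate 3 (adjusted p = 0.00672), at a mean FPKM of at least 5 (adjusted p = 0.0425), under quantile normalization (adjusted p = 0.0295) and with protein-coding genes only (adjusted p = 0.0250). MYB was called under median-ratio scaling (−0.14, adjusted p = 0.0321), while under quantile normalization it stood at 0.01.

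**Figure D3:**
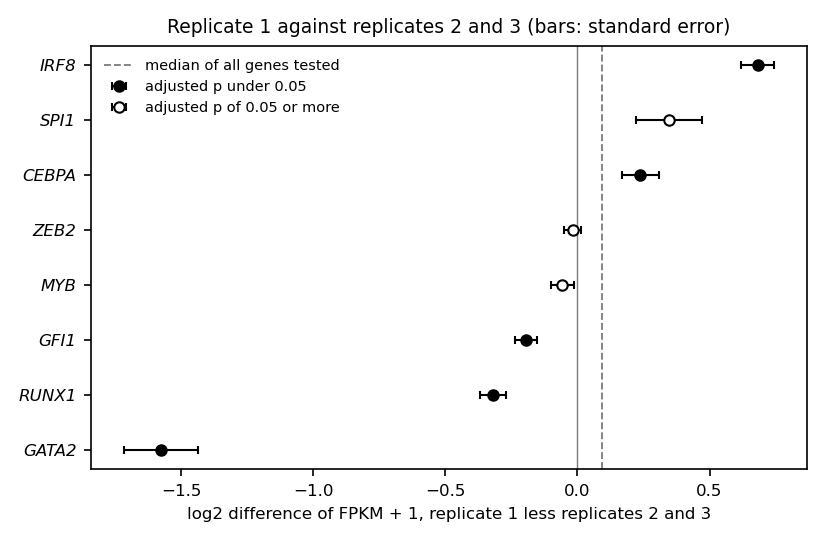
Log2 difference of FPKM + 1 between replicate 1 and replicates 2 and 3 for the 8 factors, with the standard error from limma; filled circles have an adjusted p under 0.05, and the dashed line is the median of all genes tested, at 0.09. IRF8 and CEBPA lie right of 0 and GFI1, RUNX1 and GATA2 left of it as called, with GATA2 farthest at −1.58.

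Other transcription factors of blood cells were drawn from a list of 54, of which 36 were tested. Over all libraries 0 were called in Mito-Lipo against DMSO. The 4 with the smallest p were ETS2 (log2 fold change −0.20, adjusted p = 0.477), the inhibitor of basic helix-loop-helix factors ID2 (0.59), the proliferation-linked MYBL2 (−0.28) and NFIL3 (0.37). Without replicate 1, 4 were higher and 4 lower, where 3.08% of all genes were higher and 3.32% lower. EGR1 (0.71, adjusted p = 0.00116), ID2 (0.60), NFIL3 (0.48) and the GATA partner LMO2 (0.22) rose, and CEBPD (−1.54, adjusted p = 0.00847), MYBL2 (−0.37), ETS2 (−0.22) and IKZF1 (−0.17) fell. The choice of EGR1, CEBPD, LMO2 and IKZF1 for naming followed their values. The list's median was −0.06, beside 0.02 for all genes. By replicate number, 7 of the 36 were higher and 18 lower in replicate 1, with a median of −0.19 beside 0.09, where 26.9% of all genes were higher and 12.7% lower.

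Of 20 partners and cofactors, which include the corepressors of GFI1, 18 were tested and 0 called over all libraries. KDM1A (log2 fold change −0.16), HDAC2 (−0.17), HDAC3 (0.14) and TRIB1 (0.67), which promotes the degradation of C/EBPα, had the smallest p in Mito-Lipo against DMSO. Without replicate 1, 1 of the 18 rose and 2 fell, where 3.08% of all genes were higher and 3.32% lower. TRIB1 (0.79, adjusted p = 0.00652) rose, and KDM1A (−0.23, adjusted p = 0.0324) was 1 of the 2 that fell. By replicate number 3 were higher and 3 lower in replicate 1, beside 26.9% and 12.7% of all genes.

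Target genes of PU.1 and C/EBP were represented by 18 genes, of which 14 were tested and 0 called over all libraries. The receptor gene CSF1R (log2 fold change 0.80, adjusted p = 0.589), the integrin gene ITGAM (0.90), and CSF3R (0.32) were among those of smallest p in Mito-Lipo against DMSO. Without replicate 1, 3 of the 14 rose and 0 fell, where 3.08% of all genes were higher and 3.32% lower. They were ITGAM (1.05, adjusted p = 0.00243), CSF1R (0.89, adjusted p = 0.000373) and FCGR1A (0.48, adjusted p = 0.00268, named after its value was seen). ITGAM stood at 0.503, 1.80 and 1.73 FPKM in replicates 1, 2 and 3 of DMSO and at 1.28, 4.82 and 4.59 in Mito-Lipo. CSF1R stood at 11.4, 22.4 and 20.9 FPKM in DMSO, at 18.3, 40.6 and 41.1 in Mito-Lipo and at 17.7, 24.6 and 24.8 in Com. In both genes Mito-Lipo exceeded the DMSO library of the same number in all 3 replicates. The share of all genes that did so was not counted, and the labels do not state pairing by number. By replicate number 4 of the 14 were higher and 7 lower in replicate 1, beside 26.9% and 12.7% of all genes.

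Of 8 listed genes that GFI1 is known to repress, 5 were tested, and 0 were called over all libraries, with CDKN1A (log2 fold change 1.20), CSF1R (0.80), MEIS1 (0.18) and ID2 (0.59) of smallest p. Without replicate 1, 4 rose in Mito-Lipo against DMSO, CDKN1A (1.20, adjusted p = 0.000159), CSF1R (0.89), ID2 (0.60) and MEIS1 (0.16), and HOXA9 fell (−0.26, adjusted p = 0.0423), where 6.41% of all genes were called. CSF1R is also on the list of PU.1 and C/EBP targets, and ID2 on that of the other transcription factors. CDKN1A encodes the cell cycle inhibitor p21 and also answers to p53. It stood at 48.4, 19.3 and 19.1 FPKM in replicates 1, 2 and 3 of DMSO and at 113, 45.4 and 45.1 in Mito-Lipo. The median of the 5 was 0.60, beside 0.02 for all genes, while GFI1 itself stood at −0.04 (adjusted p = 0.720) in the same libraries. By replicate number 1 of the 5 was higher and 3 lower in replicate 1, beside 26.9% and 12.7% of all genes.

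Of 5 target genes of MYB 4 were tested and 0 were called over all libraries, with log2 fold changes in Mito-Lipo of −0.15 for KIT, 0.22 for ADA, −0.03 for BCL2 and 0.01 for MYC. ADA (−0.21, adjusted p = 0.0130) fell without replicate 1, as 1 of the 4, where 3.32% of all genes were lower. ADA was at 36.3, 33.8 and 33.6 FPKM in DMSO and at 77.9, 28.96 and 29.1 in Mito-Lipo, so replicate 1 went the other way. By replicate number 1 was higher and 1 lower in replicate 1, beside 26.9% and 12.7% of all genes. The 6 genes of leukemia identity rose in 3 cases without replicate 1, with CD44 at 0.74, ITGB2 at 0.40 and PTPRC at 0.29. Of the 6, 0 fell, where 3.08% of all genes were higher and 3.32% lower. Over all libraries 0 were called, ITGB2 (0.46) having the smallest p. Their summed level was 365 to 430 FPKM in replicate 1 and 483 to 615 in replicates 2 and 3. By replicate number 4 of the 6 were called lower in replicate 1, beside 12.7% of all genes.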

How the data were processed

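RNA of MV4-11 cells was sequenced in 12 libraries, 3 per condition, and the authors deposited FPKM per gene in 1 table. Per the labels, mRNA was amplified by Geo-seq and libraries were made with a transposase kit. The submitters' processing notes list Bowtie 0.12.9, Cufflinks 2.1.1, HTSeq, DESeq2 and the mouse build mm10, with no role, although the gene identifiers are human. The strand and annotation of the counting are not given in the sources used here. A symbol was found for 41461 identifiers, and GENCODE release 29 (GRCh38), which gave positions and overlaps, held 40169. All sample columns were used (0 unmapped).

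The factors and lists were chosen with earlier results of these data known. Differences were tested on log2(FPKM + 1) with limma 3.58.1 (R 4.3.3), with 1 mean per condition over all 12 libraries, a trended prior variance and adjustment by Benjamini and Hochberg over the 18574 genes with at least 1 FPKM in at least 3 libraries. Confidence intervals are at 95%. Named genes were all 10 factors and, from each other list, up to 4 genes with the smallest p in Mito-Lipo against DMSO; others are marked in the text, and some genes of the lists are not reported here. The script was tested on simulated data. CEBPE and KLF4 come from the fit without a filter.

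Depth was the number of mapped fragments at which low values became whole numbers of fragments. Of genes with 1 exon and under 100 fragments, 98.1% to 98.3% were whole within 0.1 per library, and 66.1% to 67.2% of all genes under 100 fragments, whose exon lengths may differ from GENCODE. Counting error exceeded the SD in 2 of the 40 means of a factor in a condition, both of KLF4.

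The labels do not state whether libraries of the same number are paired. After the mean of each condition was subtracted, all 18 same-numbered pairs correlated positively, at 0.165 to 0.657, against −0.562 to 0.434 in the 36 others. The first principal component, with 41.9% of the variance, separated replicate 1. Replicates 2 and 3 did not match by number throughout. Gilteritinib replicate 3 correlated with DMSO replicate 2 at 0.434 and with DMSO replicate 3 at 0.249. Gilteritinib replicate 2 correlated with these DMSO libraries at 0.222 and 0.130. The fit with the number as a block is an alternative. The others were a pseudocount of 0.1, other filters, median-ratio and quantile scaling, no trend, 6 libraries only, and leaving out each replicate or library. A term for replicate 1, protein-coding genes only and the test of replicate 1 against the others for each drug effect were added after the data were seen.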

Additional observations from a re-analysis of the deposited data

Results flagged for a closer look

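Without replicate 1, or with it set against the rest, the Mito-Lipo effect on GATA2 and on IRF8 differed by tests of the difference itself. The interaction of both drugs in replicates 2 and 3 was −1.43 on the log2 scale for GATA2 and 0.47 for IRF8. Over all 12 libraries limma called it for neither gene (adjusted p = 0.99974 for each). With the replicate number as a block the adjusted p was 0.524 for GATA2 and 0.696 for IRF8. The effect of Mito-Lipo against DMSO in replicate 1 less that in replicates 2 and 3 was −1.14 for GATA2 and 0.48 for IRF8. Both patterns rest on replicate 1 being set aside or set against the rest, and what the replicate number stands for is not stated.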

How the results depend on the processing

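Over all 12 libraries, 0 of the 8 factors were called in any comparison of conditions under any setting that was run other than leaving out replicate 1. The count of factors called ranged from 0 to 2 when replicates were left out, in the interaction and wherever Mito-Lipo was compared with another condition, with 2 in each without replicate 1. The counts of all genes called against DMSO ranged from 0 to 1190 for Mito-Lipo, 0 to 114 for Gilteritinib and 0 to 9 for Com. Against Mito-Lipo they ranged from 0 to 1139 for Com and 0 to 1231 for Gilteritinib, between Com and Gilteritinib from 0 to 14, and for the interaction from 0 to 552, each highest without replicate 1. With no filter on low values they were 3 for Mito-Lipo and 2 for Gilteritinib against DMSO, 3 for Com and 3 for Gilteritinib against Mito-Lipo, 1 between Com and Gilteritinib, and 3 for the interaction. A term for replicate 1, added after seeing the data, gave 34 in Mito-Lipo against DMSO, 11 in Com against Mito-Lipo and 252 in Gilteritinib against Mito-Lipo. The 1 gene of Com against DMSO became 0 under a pseudocount of 0.1, a mean FPKM of at least 5, the replicate block, the 6 libraries only and protein-coding genes only. Between replicate numbers 4541 genes were called at a mean FPKM of at least 5.

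When replicate numbers entered the fit as a block, 0 genes were called in Com against DMSO, 2 in Com against Mito-Lipo and 5 in Gilteritinib against Mito-Lipo. The block changed no call of a factor. In that fit GATA2 in Mito-Lipo against DMSO had an adjusted p of 0.114 and IRF8 of 0.238.

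Directions turned only among uncalled values. Median-ratio scaling gave −0.0107 for RUNX1 and −0.0131 for GFI1 in Mito-Lipo. Quantile normalization gave −0.000864 for MYB in Gilteritinib, 0.0038 for ZEB2 in Mito-Lipo, 0.0154 for ZEB2 in Com, and by replicate number 0.00914 for MYB and 0.000545 for ZEB2. Leaving out replicates or libraries, log2 fold changes in Mito-Lipo ranged from −0.512 to 0.0691 for SPI1, −0.268 to 0.0160 for CEBPA, −0.129 to 0.0774 for RUNX1 and −0.0969 to 0.0768 for GFI1. In Gilteritinib they ranged from −0.253 to 0.0271 for RUNX1, −0.0362 to 0.106 for MYB, −0.384 to 0.00864 for IRF8 and −0.154 to 0.72 for GATA2. In Com they ranged from −0.18 to 0.0615 for RUNX1, −0.135 to 0.0378 for GFI1, −0.323 to 0.0336 for IRF8, −0.222 to 0.625 for GATA2 and −0.0431 to 0.00272 for ZEB2. By replicate number ZEB2 ranged from −0.0352 to 0.00588. The cause was not tested. Without replicate 1 each condition has 2 libraries, which limits how well the spread behind the calls of GATA2 and IRF8 is known.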
